A study of Mus musculus with 20 samples.

Results

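The striated muscle myosin heavy chain genes of the outer eyecup are described here. These 9 genes (Myh1, Myh2, Myh3, Myh4, Myh6, Myh7, Myh7b, Myh8 and Myh13) were chosen by gene symbol from the 24411 genes measured. All 9 passed the minimum of 5 reads in total and were among the 18807 genes tested. RNA came from the RPE-choroid (retinal pigment epithelium and the vascular layer behind it) of C57BL/6 wild-type (WT) mice and of Stra6-/- mice, which lack the retinol transporter STRA6. The VAS WT and VAS Stra6-/- groups ate a vitamin A sufficient diet with 4 IU of vitamin A per g, and the VAD WT and VAD Stra6-/- groups ate a vitamin A deficient diet with 0 IU per g, in each case for 12 weeks after weaning. Each group had 5 libraries, and the paper states that each was made from both eyecups of 1 mouse. The Stra6 deletion was in every cell rather than in 1 tissue. The study's methods state that muscle and connective tissue were cut away from the enucleated eye. Muscle is thus tissue that the dissection was meant to remove, and the source of the transcripts below was not tested. How much muscle was left on each eyecup was not recorded in the sources used here.

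Myosin heavy chains are the motor subunits of the thick filament, and the chain that a muscle fibre makes sets how fast it contracts. Limb muscle uses a slow chain (Myh7) and the fast chains 2A (Myh2), 2X (Myh1) and 2B (Myh4), whereas the embryonic chain (Myh3) and the perinatal chain (Myh8) are largely replaced after birth. Extraocular muscles, which move the eye, are unusual in that they keep developmental chains in the adult and also make a superfast chain (Myh13) and a slow tonic chain (Myh7b). Myh6 encodes the alpha chain of cardiac muscle.

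In the GRCm38 annotation 6 of the 9 genes stood in a row on the plus strand of chromosome 11. Myh3 was at chr11:67078300-67102291, Myh2 at chr11:67171027-67197517, Myh1 at chr11:67200052-67224575, Myh4 at chr11:67238029-67260446, Myh8 at chr11:67277124-67308634 and Myh13 at chr11:67321658-67371586. Myh6 (chr14:54941921-54966927) and Myh7 (chr14:54970684-54994626) were neighbours on the minus strand of chromosome 14, and Myh7b was at chr2:155611212-155634307 on the plus strand. The spliced transcripts ran from 6016 bases (Myh4) to 6230 bases (Myh7), so length did little to separate the genes.

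RefSeq start sites on GRCm38.p6 were found for all 9 genes. The 250 bases before the start are printed for the most abundant of the 9 genes, namely the 3 adult fast ones and embryonic Myh3. Capitals mark the TATA box (TATAAA or its reverse complement), the E-box CAGCTG and the longest run of letters that the 3 adult fast genes share, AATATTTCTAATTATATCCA. Myh4 lay at chr11:67237562-67237811, Myh1 at chr11:67199852-67200101, Myh2 at chr11:67170777-67171026 and Myh3 at chr11:67078050-67078299, all on the plus strand.
Myh4: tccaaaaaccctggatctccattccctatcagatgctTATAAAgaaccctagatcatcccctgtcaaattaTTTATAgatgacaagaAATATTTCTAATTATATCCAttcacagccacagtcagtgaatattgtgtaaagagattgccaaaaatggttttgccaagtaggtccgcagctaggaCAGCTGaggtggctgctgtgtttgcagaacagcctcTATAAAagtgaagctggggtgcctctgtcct
Myh1: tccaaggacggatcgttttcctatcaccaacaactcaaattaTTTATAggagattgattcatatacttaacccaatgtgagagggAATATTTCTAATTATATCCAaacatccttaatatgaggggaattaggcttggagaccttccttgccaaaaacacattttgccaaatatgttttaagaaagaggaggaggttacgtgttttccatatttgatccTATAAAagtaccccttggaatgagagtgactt
Myh2: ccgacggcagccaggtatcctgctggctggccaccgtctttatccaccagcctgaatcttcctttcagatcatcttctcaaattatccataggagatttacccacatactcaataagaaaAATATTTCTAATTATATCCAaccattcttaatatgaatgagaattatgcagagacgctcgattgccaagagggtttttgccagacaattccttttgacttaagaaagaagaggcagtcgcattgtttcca
Myh3: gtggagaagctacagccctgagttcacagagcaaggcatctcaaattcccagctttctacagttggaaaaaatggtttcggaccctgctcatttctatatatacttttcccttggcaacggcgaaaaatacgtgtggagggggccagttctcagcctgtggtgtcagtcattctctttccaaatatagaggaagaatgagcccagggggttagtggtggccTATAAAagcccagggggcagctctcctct
The shared run of 20 bases started 163 bases before the start of Myh4, 165 before that of Myh1 and 130 before that of Myh2. It was picked from these 3 sequences and was in 3 of 32851 mouse promoter windows of this length, 0.00913%, which are the same 3 genes. A TATA box stood 31 bases before the start of Myh4, 32 before that of Myh1 and 29 before that of Myh3, and the Myh2 window held none. Counted from the shared run, the position of this box in Myh4 and Myh1 falls past the end of the Myh2 window. That window therefore does not show that Myh2 lacks one. Over all promoter windows 12.4% held these TATA letters and 13.0% the E-box letters, which Myh4 had 67 bases before its start. Such matches describe letters and not bound sites.

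Some libraries stood apart from their group, and the level of Stra6 did not follow the labels. In the 5 libraries labelled VAD Stra6-/-, Stra6 (chromosome 9) read 2126, 1973, 2116, 2393 and 2208 normalized counts, above the 564 to 694 of VAS Stra6-/- and near the 2414 to 2742 of VAS WT. In VAD WT it read 693, 1340, 697, 1529 and 669, so replicates 1, 3 and 5 stood at the level of VAS Stra6-/- and all 5 lay below both VAS WT and the libraries labelled VAD Stra6-/-. STRA6 is made by the RPE, and within each labelled genotype the RPE markers moved with these levels between the diets. Between VAS WT and VAS Stra6-/- they did not, as their sums were 133153 to 149923 and 149615 to 157265. Per 100 normalized counts of the 10 RPE markers, a ratio added after the data were seen, Stra6 stood at 1.71 to 2.02 in VAS WT and 1.47 to 1.82 in VAD WT, against 0.365 to 0.441 in VAS Stra6-/- and 0.348 to 0.429 in the libraries labelled VAD Stra6-/-. On that scale every library lay with its labelled genotype. Which part of Stra6 the allele removes is not given in the sources used here, so neither value is a full check, and these libraries are named by their label throughout. In VAD WT, replicates 2 and 4 had 10912 and 11767 counts of the female transcript Xist, against 174 to 234 in replicates 1, 3 and 5, and 75.2 and 80.5 of the Y-linked Ddx3y against 1041 to 1133. Xist was at most 38.4 in VAS WT and at least 15320.2 in VAS Stra6-/-, where Ddx3y was at least 981 and at most 1.02. The libraries labelled VAD Stra6-/- held both Xist (3569.8 to 4279.6) and Ddx3y (741 to 969.7), which no VAS library did at such levels. Those values are at odds with 1 mouse of 1 sex per library, and how they arose was not tested. Sex transcripts thus moved with the groups. Between the VAS groups they cannot be told apart from genotype, and their part in the results was not tested. Because of its split, VAD WT is also described without replicates 2 and 4 and without replicates 1, 3 and 5. These subsets follow a split seen in these data, so fitting them takes that spread out of the error. Their adjusted p values are small partly for that reason and do not measure the spread of VAD WT.

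The adult fast chains Myh4 and Myh1 and the embryonic chain Myh3 were the most abundant. As the mean over the 20 libraries of normalized counts per kb of transcript, Myh4 stood at 474, Myh1 at 228, Myh3 at 113 and Myh2 at 79.9, followed by Myh7 at 14.4, Myh8 at 8.63 and Myh7b at 7.68. Myh6 (0.477) and Myh13 (0.394) were last. The order of Myh1, Myh2 and Myh3 was not fixed across libraries, because Myh3 lay above Myh2 in VAS WT and VAS Stra6-/- and below it in the libraries labelled VAD Stra6-/-.

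**Figure D1:**
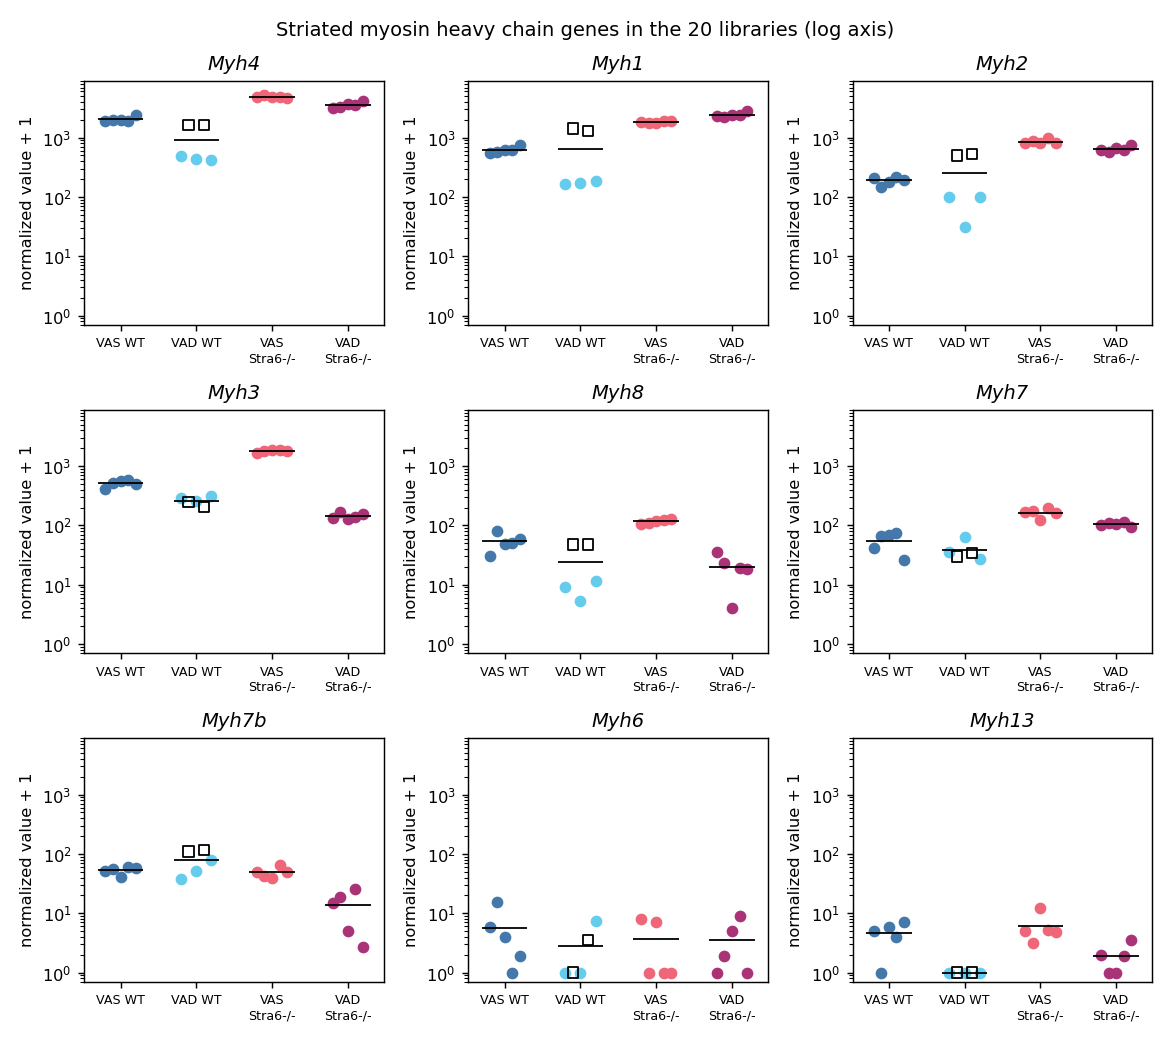
Normalized count plus 1 (log axis) of the 9 myosin heavy chain genes in each of the 20 libraries, by group, with a horizontal line at the mean of the 5 libraries. Open squares are VAD WT replicates 2 and 4. The 3 adult fast genes and Myh8 split VAD WT in the same way, Myh3 did not, and Myh6 and Myh13 sat at the floor.

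Myh13, the chain specific to extraocular muscle and the larynx, was barely detected. It had 3.93, 0, 4.86, 2.93 and 6.25 normalized counts in VAS WT, 0 in all 5 VAD WT libraries, 4.06, 2.19, 11.2, 4.22 and 3.75 in VAS Stra6-/-, and 1.008, 0, 0, 0.878 and 2.54 in the libraries labelled VAD Stra6-/-. The highest library rested on 11 reads. Myh3, Myh8 and Myh7b, which extraocular muscle also makes, had reads in every library, so these chains did not all behave as Myh13 did. Whether all of these transcripts came from muscle, and from which muscle, was not tested. The genes are named here by what they encode. Myh6 was as low, with 0 to 14.4 counts and at least 1 library at 0 in each group.

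Amount and composition both varied. The values per kb of the 9 genes summed to 538 to 661 in VAS WT, 1565 to 1653 in VAS Stra6-/- and 1054 to 1323 in the libraries labelled VAD Stra6-/-. The VAD WT sums were 185, 663, 168, 638 and 186, so replicates 2 and 4 stood at the top of the VAS WT range and the other 3 lay below every other library. Fewer muscle fibres and less RNA per fibre cannot be told apart in bulk tissue.

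Myh4 made up 57.9% ± 2.39 (SD, n = 5) of this sum in VAS WT, 41.8% ± 2.94 in VAD WT, 50.4% ± 1.53 in VAS Stra6-/- and 51.6% ± 1.58 in the libraries labelled VAD Stra6-/-. The Myh1 share was 17.5% ± 0.902 in VAS WT and 18.8% ± 0.759 in VAS Stra6-/-, against 35.1% ± 1.11 in the libraries labelled VAD Stra6-/-. Within VAD WT the share was 14.7, 35.6, 16.6, 33.3 and 16.4%, with replicates 2 and 4 at the level of the libraries labelled VAD Stra6-/- and the other 3 near VAS WT. Myh3 ran the opposite way, with 14.6% ± 1.76 in VAS WT, 18.6% ± 0.682 in VAS Stra6-/- and 2.08% ± 0.321 in the libraries labelled VAD Stra6-/-. Its VAD WT shares were 25.5, 6.24, 25.5, 5.31 and 27.4%, again split between the same libraries. Myh1, Myh2 and Myh4 together made up 78.3 to 83.7% of the sum in VAS WT and 95.1 to 96.7% in the libraries labelled VAD Stra6-/-.

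**Figure D2:**
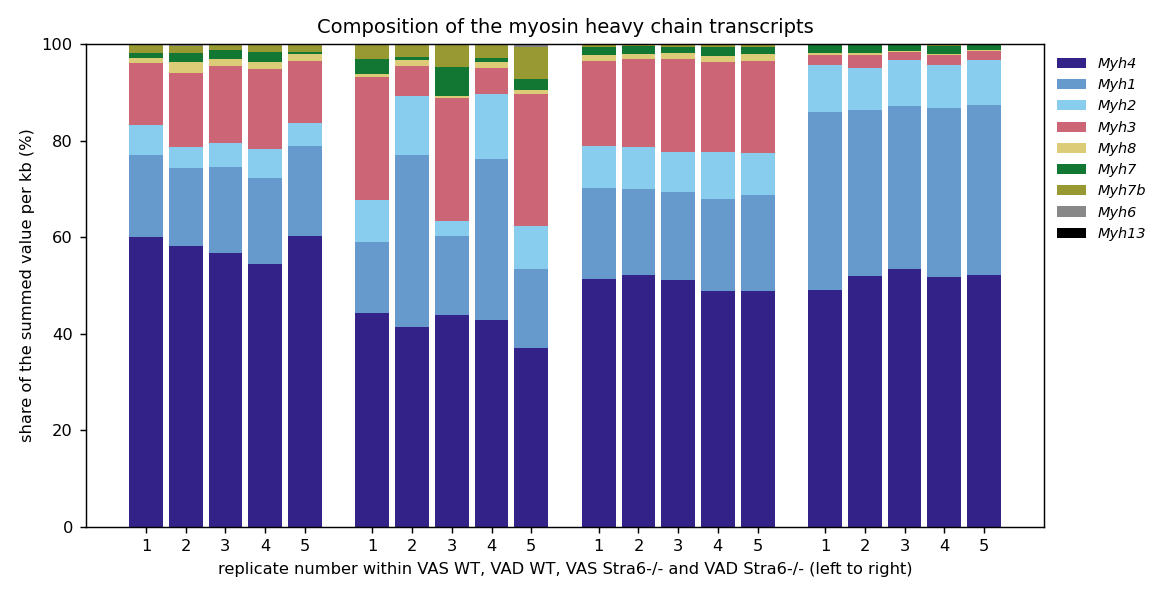
Share of each gene in the summed value per kb of the 9 genes, as stacked bars for each library. The Myh3 segment is 12.7 to 19.4% in both VAS groups and 1.81 to 2.64% in the libraries labelled VAD Stra6-/-, where Myh1 takes 33.9 to 36.8%.

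The first comparison was between the genotypes on the sufficient diet. These groups also differed in Xist and Ddx3y without overlap, so genotype and sex cannot be told apart in it. In VAS Stra6-/- against VAS WT, 5 of the 9 genes rose and 0 fell, namely all 3 adult fast chains, embryonic Myh3 and slow Myh7. Among all genes tested 15.9% rose, 10.8% fell and 26.6% changed in either direction. The median log2 fold change of the 9 was 1.26, against 0.02 over all genes. Tests are limma fits on log2(normalized count + 1) over all 20 libraries, called at an adjusted p under 0.05 over all 18807 genes, and fold changes are on that scale.

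Myh4 had 1941, 2004, 1984, 1898 and 2393 counts in VAS WT and 4863, 5169, 4860.2, 4850.3 and 4599.7 in VAS Stra6-/-. The groups were far apart, with a log2 fold change of 1.26 (SE 0.30, adjusted p = 0.00307). Myh1 had 557, 568, 627, 625 and 752 counts against 1799.9, 1794, 1756, 1915 and 1889.5, a log2 fold change of 1.55 (SE 0.46, adjusted p = 0.0151). Its groups did not overlap either. Myh2 had the steepest rise among the 9, from 206, 149, 179.9, 218 and 195 counts to 821, 870.3, 802, 984 and 822 (log2 fold change 2.18, SE 0.50, adjusted p = 0.00225).

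Myh3 had 418, 527, 556, 578 and 504 counts in VAS WT and 1682, 1802, 1848, 1857 and 1808 in VAS Stra6-/-. It rose by a log2 fold change of 1.81 with a small error (SE 0.11, adjusted p = 3.67e-10), and every VAS Stra6-/- library exceeded every VAS WT library. Myh8 had 29.5, 79.8, 47.7, 49.8 and 58.9 counts against 106, 108, 120.0, 121 and 129. Although these groups did not overlap, the log2 fold change of 1.19 did not pass in the fit over 4 groups (SE 0.58, adjusted p = 0.141), whose spread includes the split VAD WT libraries, and it passed when only these 2 groups were fitted (adjusted p = 0.00190).

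Slow Myh7 had 40.3, 66.3, 68.1, 73.2 and 24.99 counts in VAS WT and 169.6, 173, 121, 193 and 158 in VAS Stra6-/- (log2 fold change 1.65, SE 0.28, adjusted p = 1.41e-04). Myh7b was level between these groups, at 39.9 to 58.5 and 37.6 to 64.2 counts (log2 fold change -0.13, 95% interval -1.13 to 0.88, adjusted p = 0.886). Other muscle genes moved the same way. Of 11 fast-fibre genes that encode the troponins, light chains and calcium handling of fast fibres, 10 rose and 0 fell (median log2 fold change 1.35), as did 4 of 9 slow-fibre genes and 11 of 17 sarcomere genes common to all fibres. The fast-fibre genes named are Atp2a1, the calcium pump of fast fibres, at 1.66 (SE 0.41), and Tnnt3, fast troponin T, at 1.35 (SE 0.29). Mybpc1, slow myosin binding protein C, rose by a log2 fold change of 2.12 (SE 0.32), whereas Tpm3, a tropomyosin also made outside muscle, rose by 0.25 (SE 0.07). When the mean of these muscle lists was a covariate, the log2 fold changes of Myh1 and Myh4 turned to -1.27 and -0.53 and were called lower (adjusted p = 8.96e-06 and 0.00702), and those of Myh2 and Myh8 turned to -0.39 and -1.03 and were not called. That of Myh3 was 2.12 (adjusted p = 3.53e-10). The covariate itself did not overlap between these groups, at 7.91 to 8.03 in VAS WT and 8.998 to 9.11 in VAS Stra6-/-. Its slope rests on the split within VAD WT, so these values are an extrapolation and cannot separate genotype from the amount of muscle.

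**Figure D3:**
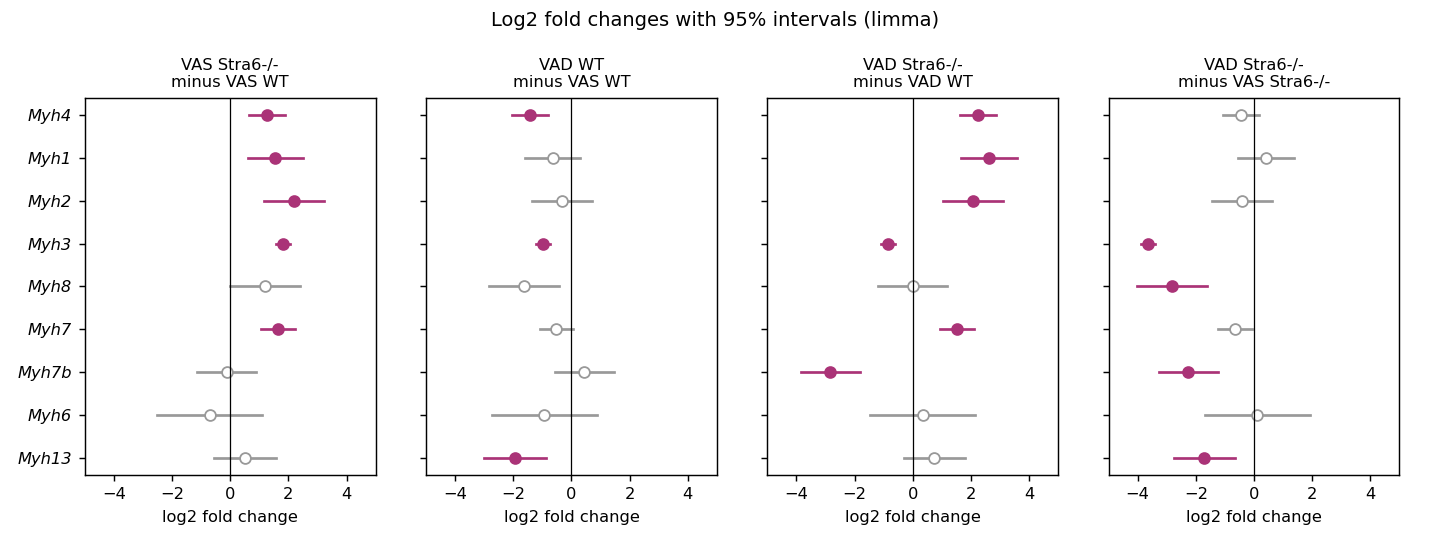
Log2 fold changes of the 9 genes (points) with 95% intervals (lines) in 4 comparisons. Filled points passed an adjusted p of 0.05. Myh3 has the narrowest interval in each panel and lies right of 0 in the first panel only.

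The diet was compared within WT next. In VAD WT against VAS WT, 3 of the 9 genes fell (Myh3, Myh4 and Myh13) and 0 rose, where 5.5% of all genes fell, 3.29% rose and 8.78% changed in either direction. The median over the 9 was -0.93, against 0.00 over all genes.

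Myh3 had 285, 249, 258, 205 and 307 counts in VAD WT, all below the lowest VAS WT library (log2 fold change -0.99, SE 0.11, adjusted p = 4.31e-06). This drop held in both VAD WT subsets, at -0.86 without replicates 2 and 4 and -1.18 without replicates 1, 3 and 5. Myh4 had 493, 1647, 441, 1647 and 413 counts, again all below VAS WT (log2 fold change -1.43, SE 0.30, adjusted p = 0.00319). Its size depended on the subset, at -2.18 without replicates 2 and 4 and -0.31 without the other 3, and the call was lost when only these 2 groups were fitted (adjusted p = 0.122). The Myh13 call rested on 0 to 7 reads per library, and no fold is given.

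Myh1 went in opposite directions in the VAD WT subsets. It had 166, 1435, 169, 1292 and 186 counts, that is, below every VAS WT library in replicates 1, 3 and 5 and above every one in replicates 2 and 4. Over all 5 the log2 fold change was -0.65 (SE 0.46, adjusted p = 0.451, and 0.696 when only these 2 groups were fitted with limma). In the subsets, whose fits leave the split out of the error, it was -1.84 without replicates 2 and 4 (adjusted p = 1.07e-12). Without the other 3 it was 1.13 (adjusted p = 7.42e-08). Myh2 did the same, with 97.9, 498, 29.8, 525 and 100.1 counts and log2 fold changes of -0.32 over all 5, -1.48 without replicates 2 and 4 and 1.44 without the others.

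Myh8 split too, with 8.25, 46.4, 4.26, 47.1 and 10.4 counts in VAD WT. Its log2 fold change was -1.63 (SE 0.58, adjusted p = 0.0870) with all 5, -2.65 (adjusted p = 3.07e-04) without replicates 2 and 4 and -0.11 without the others. Myh7 had 34.2, 28.8, 62.4, 33.4 and 26.00 counts, overlapping VAS WT (log2 fold change -0.52, adjusted p = 0.300), with -0.40 without replicates 2 and 4 and -0.69 without the others, neither called. Myh7b had 36.5, 108, 49.7, 115 and 76.7 counts (log2 fold change 0.45, adjusted p = 0.648), highest in the same replicates 2 and 4. Its log2 fold change was 0.012 without them and 1.099 without the other 3, and neither was called. Of the 11 fast-fibre genes 9 fell and 0 rose (median -0.96), while 1 of 9 slow-fibre genes and 3 of 17 common sarcomere genes fell. The summed fast-fibre genes were 3573, 11551, 3617, 10468 and 4036 in VAD WT against 10132 to 12437 in VAS WT, so the fast chains and the other fast-fibre genes split VAD WT alike. Sclera and tendon markers split it as well, at a summed 41773 and 41658 in replicates 2 and 4 and 8745 to 9726 in the others. Photoreceptor markers (292602 and 294353 against 112234 to 115027), endothelium markers (13784 and 14235 against 4540 to 4749) and RPE markers (86606 and 83983 against 42576 to 45517) were likewise higher in replicates 2 and 4, whereas surface epithelium markers were lower there (411898 and 408133 against 1069960 to 1099140). Over all 5 libraries 8 of 10 RPE markers fell against VAS WT. The part of these tissues in the myosin values was not tested.

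Genotype was then compared within the deficient diet. In the libraries labelled VAD Stra6-/- against VAD WT, 4 of the 9 genes rose (Myh1, Myh2, Myh4 and Myh7) and 2 fell (Myh3 and Myh7b), where 26.2% of all genes rose, 29.6% fell and 55.9% changed in either direction. Since more than 1 gene in 2 changed, the count says little about these 9. The median over them was 0.75, against -0.05 over all genes.

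Myh4 had 3108, 3328, 3721, 3514 and 4149 counts in the libraries labelled VAD Stra6-/-, all above VAD WT (log2 fold change 2.23, SE 0.30, adjusted p = 1.48e-06). Myh1 had 2361, 2232, 2390.1, 2414 and 2827 counts (log2 fold change 2.62, SE 0.46, adjusted p = 4.97e-05) and Myh2 had 629, 573, 663, 610.1 and 754 (log2 fold change 2.08, SE 0.50, adjusted p = 0.00117). No group overlapped for these 3 genes. Against VAD WT replicates 2 and 4 alone the differences shrank to 1.11 for Myh4, 0.84 for Myh1 and 0.33 for Myh2, each still called, and against the other 3 they were 2.98, 3.80 and 3.25.

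Slow Myh7 had 101, 107, 103, 112 and 93.0 counts, above every VAD WT library (log2 fold change 1.53, SE 0.28, adjusted p = 8.39e-05). Myh3 had 131, 169.6, 127, 135 and 154 counts, below every VAD WT library (log2 fold change -0.85, SE 0.11, adjusted p = 1.30e-06). Slow tonic Myh7b had 14.1, 18.0, 4.09, 24.6 and 1.69 counts, also below every VAD WT library and resting on 2 to 28 reads (log2 fold change -2.84, SE 0.48, adjusted p = 3.60e-05). These 3 calls held in both VAD WT subsets. Myh8 had 34.3, 22.6, 3.07, 18.4 and 17.8 counts and overlapped VAD WT (log2 fold change -0.01, 95% interval -1.21 to 1.19). That value averaged opposite ones, as Myh8 stood at 1.01 (adjusted p = 0.0914) without VAD WT replicates 2 and 4 and at -1.53 (adjusted p = 0.0292) without the other 3. All 11 fast-fibre genes rose (median 1.52), 1 of 9 slow-fibre genes rose and 3 fell, and 12 of 17 common sarcomere genes rose and 2 fell.

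The diet was compared last within Stra6-/-. In the libraries labelled VAD Stra6-/- against VAS Stra6-/-, 4 of the 9 genes fell (Myh3, Myh7b, Myh8 and Myh13) and 0 rose, where 28.8% of all genes fell, 24.4% rose and 53.2% changed in either direction. The median over the 9 was -0.64, against -0.07 over all genes. This comparison held the largest difference among the 9 genes, the 12.5-fold fall of Myh3 from 1682 to 1857 counts to 127 to 169.6 (log2 fold change -3.65, SE 0.11, adjusted p = 1.33e-16).

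The perinatal chain followed the embryonic one, as Myh8 fell from 106 to 129 counts to 3.07 to 34.3 (log2 fold change -2.83, SE 0.58, adjusted p = 2.70e-04). Myh7b fell from 37.6 to 64.2 counts to 1.69 to 24.6 (log2 fold change -2.26, SE 0.48, adjusted p = 4.40e-04). The Myh13 call rested on at most 11 reads and was lost with edgeR (adjusted p = 0.0892). Adult fast chains did not pass in this limma fit, with log2 fold changes of 0.41 for Myh1 (adjusted p = 0.477), -0.41 for Myh2 (adjusted p = 0.512) and -0.46 for Myh4 (adjusted p = 0.210). Their groups nevertheless did not overlap, with Myh1 higher and Myh2 and Myh4 lower, and each passed when only these 2 groups were fitted (adjusted p = 1.40e-04, 0.00124 and 2.72e-04). Myh7 was lower, at 93.0 to 112 against 121 to 193 counts (log2 fold change -0.64, SE 0.28, adjusted p = 0.0609).

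Relative to Myh4, per kb, Myh1 stood at 0.343 to 0.406 in VAS Stra6-/- and at 0.636 to 0.751 in the libraries labelled VAD Stra6-/-, and Myh3 at 0.345 to 0.392 and 0.0340 to 0.0508. Both ratios were taken within a library, and neither overlapped between the groups. Of the 11 fast-fibre genes 6 fell and 0 rose (median -0.67), and of the 9 slow-fibre genes 7 fell (median -1.61). Of 6 genes listed for developing muscle apart from myosin heavy chains 3 fell and 0 rose, among them Myl6b, a light chain (log2 fold change -1.16, SE 0.20), while Ncam1, an adhesion molecule of young fibres and of nerve, stood at -0.17 (adjusted p = 0.117).

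Other tissues moved in the same libraries. In the libraries labelled VAD Stra6-/- against VAS Stra6-/-, all 8 surface epithelium markers fell (summed level 27552 to 36975 against 893744 to 928331), 9 of 10 RPE markers rose (558100.0 to 602951 against 149615 to 157265) and all 8 sclera and tendon markers rose (49793 to 52234 against 9863 to 10542). Of 7 smooth muscle markers 6 rose, and of 8 photoreceptor markers 5 fell. Against VAD WT the same libraries had 8 of 8 surface epithelium markers lower, 9 of 10 RPE markers higher and 7 of 8 sclera and tendon markers higher. On the sufficient diet, VAS Stra6-/- against VAS WT, 2 surface epithelium markers rose and 3 fell, and 0 of 8 sclera and tendon markers rose and 2 fell. The part of these tissue differences in the myosin values was not tested.

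**Figure D4:**
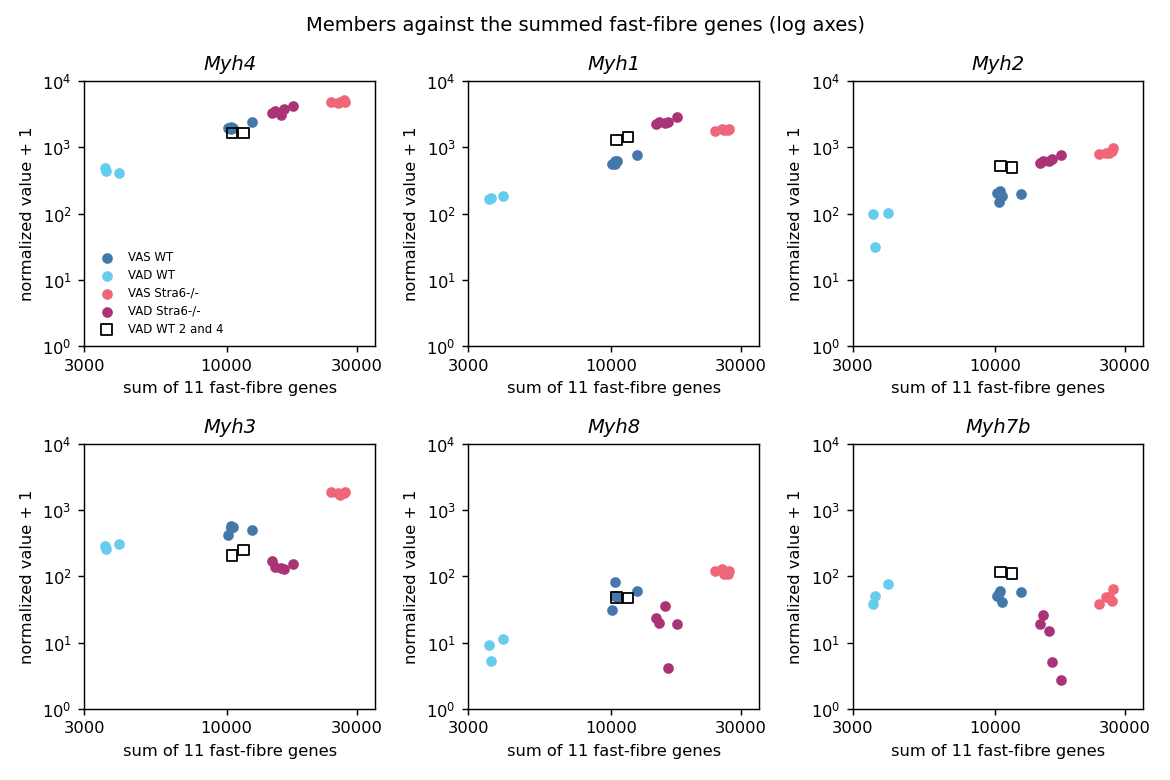
Normalized count plus 1 of 6 members against the summed normalized count of the 11 fast-fibre genes, a point per library, log axes. Myh4 rises with the sum across all libraries, whereas Myh3, Myh8 and Myh7b are low in the libraries labelled VAD Stra6-/-, whose sums (14662 to 17543) exceed those of VAS WT.

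The interaction of genotype and diet tested whether the difference between diets varied with the labelled genotype. It passed for Myh3 (-2.66 on the log2 scale, SE 0.16, adjusted p = 1.67e-11) and Myh7b (-2.71, SE 0.68, adjusted p = 0.00267), so 2 of the 9 genes were called lower and 0 higher, where 24.8% of all genes were lower, 19.5% higher and 44.2% were called in either direction. Both held in each VAD WT subset, with Myh3 at -2.79 and -2.47 and Myh7b at -2.27 and -3.36. For Myh4 the interaction was 0.98 (adjusted p = 0.0652) and for Myh1 1.06 (adjusted p = 0.200). Both signs depended on the subset. Without VAD WT replicates 2 and 4 the interaction was 1.73 (adjusted p = 1.97e-11) for Myh4 and 2.25 (adjusted p = 3.81e-13) for Myh1, and without the other 3 it was -0.15 (adjusted p = 0.305) and -0.72 (adjusted p = 8.30e-05). Myh2 went from 1.07 (adjusted p = 0.0108) to -1.85 (adjusted p = 2.10e-08) in the same way, and Myh8 stood at -0.18 and, called, at -2.72 (adjusted p = 0.00349).

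Along chromosome 11 the genes called lower in 1 comparison stood on both sides of the adult fast genes. Myh3, at one end, and Myh8, beyond the adult fast genes, both fell in the libraries labelled VAD Stra6-/- against VAS Stra6-/-. So did Myh13 at the other end, on at most 11 reads per library. Myh2, Myh1 and Myh4 between them did not pass in the fit over 4 groups, though each passed when only these 2 groups were fitted. Expressed as a percent of the summed fast-fibre genes, Myh3 was 4.82 ± 0.684 in VAS WT, 6.95 ± 0.455 in VAS Stra6-/- and 0.909 ± 0.146 in the libraries labelled VAD Stra6-/- (SD, n = 5), while Myh1 was 5.79 ± 0.281, 7.06 ± 0.283 and 15.4 ± 0.635. Myh4 was 18.96 ± 0.449, 18.8 ± 0.925 and 22.5 ± 1.61, the most even of the 3. In VAD WT the same percents ran from 1.95 to 7.98 for Myh3, 4.61 to 12.4 for Myh1 and 10.2 to 15.7 for Myh4.

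**Figure D5:**
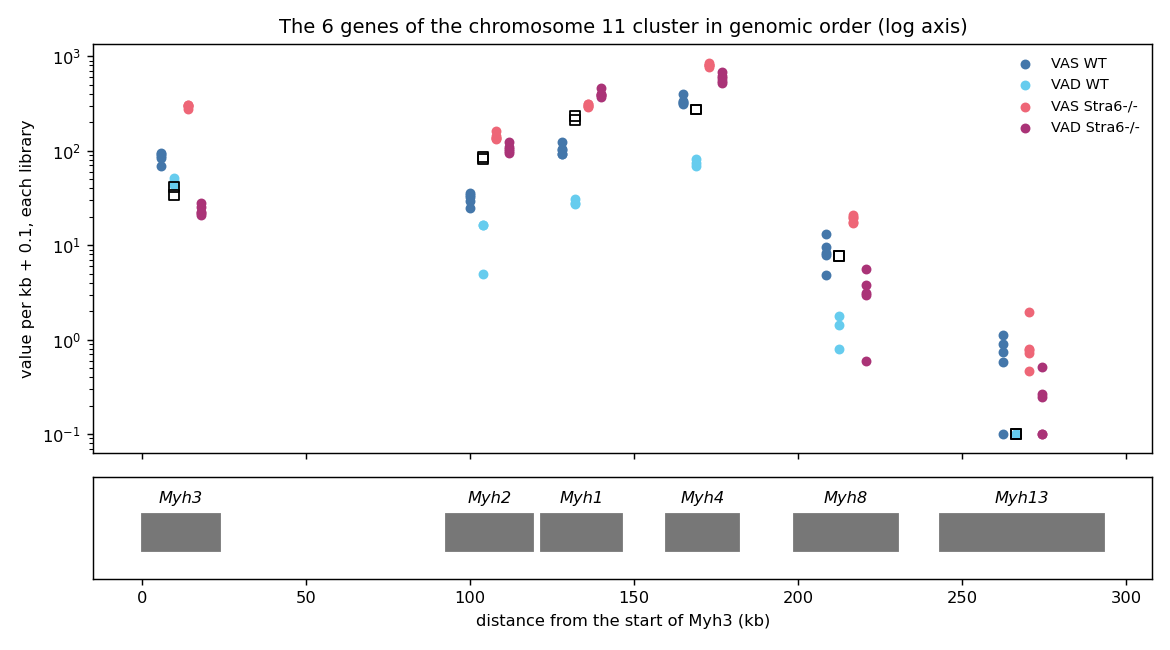
Value per kb plus 0.1 (log axis) of the 6 genes of the chromosome 11 cluster in each library, above their positions in kb from the start of Myh3. Open squares are VAD WT replicates 2 and 4. Myh2, Myh1 and Myh4 stand side by side at high levels and Myh13 at the far end is at the floor.

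Library by library, the genes most like Myh4, Myh1 and Myh3 were sought among 16076 genes with a mean of at least 10 in a group, as Pearson correlations of log2(normalized count + 1) after subtracting each group's mean. For Myh4 the closest were Trf (transferrin, r = 0.987), Rcvrn (the photoreceptor protein recoverin, 0.987) and Acta1 (skeletal actin, 0.986). Myh1 was closest to Serpine2 (0.997), Igfbp3 (0.995) and Myoc (0.995), and Myh3 to Osbpl9 (0.832), Cntrl (0.821) and Ergic2 (0.807). The first 6 values rest largely on the VAD WT split: over the 15 other libraries they were between 0.695 and 0.868. Myh7b was closest to Slc30a3 (0.889), Grm2 (0.861) and Chodl (0.851). Over the 15 other libraries these were 0.904, 0.885 and 0.840. Like Myh7b, the summed photoreceptor markers were lowest in the libraries labelled VAD Stra6-/- (83312 to 95388) and highest in VAD WT replicates 2 and 4. Whether the Myh7b transcripts came from muscle was not tested. All these correlations are descriptions over 20 libraries that share a normalization.

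Muscle genes outside the sarcomere moved less evenly. Of 12 genes of the triad, where a fibre releases calcium, 5 rose and 1 fell in VAS Stra6-/- against VAS WT, and 0 rose and 6 fell in the libraries labelled VAD Stra6-/- against VAS Stra6-/-. Of 17 regulators of muscle identity 3 rose and 1 fell, and 3 rose and 5 fell, in the same comparisons, and of 9 tested genes of the neuromuscular junction 2 rose and 2 fell, and 1 rose and 2 fell. Over all genes tested 15.9% rose and 10.8% fell in the first comparison, and 24.4% rose and 28.8% fell in the second. Beside these shares the counts for the regulators and junction genes, in lists this short, say little. The highest junction gene, Lrp4, rose in the first comparison (log2 fold change 0.40, SE 0.12). Its mean was 824 counts in VAS Stra6-/- and 462 in the libraries labelled VAD Stra6-/-. Ache, which encodes the acetylcholinesterase of nerve endings and of the junction, fell in both comparisons, with log2 fold changes of -0.49 (SE 0.12) and -0.74 (SE 0.12). Among the 4 myosins of non-muscle and smooth muscle cells Myh9 rose in the first comparison (0.68, SE 0.07) and fell in the second (-0.86, SE 0.07), and Myh14 fell in the second (-1.20, SE 0.15).

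Sequence shared between the genes limits how far reads could be told apart. Of the windows of 50 bases in its transcript, Myh1 shared 26.7% with another member, Myh2 26.9%, Myh8 21.4%, Myh4 18.9%, Myh3 4.81% and Myh7b 0%. At 150 bases, the read length, the shares were 2.495% for Myh1, 2.06% for Myh2, 0.511% for Myh4 and 0.306% for Myh3. Myh6 and Myh7 shared the most with each other, 22.6% of the 50-base windows of Myh6, and the shares at 150 bases were 5.53% for Myh6 and 5.43% for Myh7, so their split is the least certain. Myh1 and Myh2 followed (19.7% of 50-base windows of Myh1), whereas Myh3 and Myh7b were nearly free of shared sequence. Antisense genes overlap exons of Myh1, Myh2, Myh6 and Myh7 and the end of Trpc4ap overlaps 37 bases of Myh7b, and whether counting used the strand is not given in the sources used here.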

How the data were processed

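Outer eyecup RNA was sequenced in 20 libraries, 5 in each of 4 groups. Alignment by the authors used STAR 2.5.3a and GRCm38, genes were counted with RSEM 1.2.30 and, per the submitters' processing notes, normalized with DESeq2 1.32.0. The deposited signal is the count of each gene divided by 1 size factor per library, not by length. All values came out as whole reads within 0.01 (100% of values per library), with totals of 13330000 to 21880000 reads per library; for VAD Stra6-/- replicate 1 this recovery was not relied on, so the tests on counts use 19 libraries. No 2 libraries of a group differed by as little as counting noise (lowest chi-square per gene 3.35, where noise gives about 1 per gene).

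Here log2(value + 1) was fitted with limma 3.58.1 (R 4.3.3; 4 group means, trended variance, Benjamini-Hochberg adjustment) over 18807 genes with at least 5 reads in total. Per kb values divide by the GENCODE vM21 exon length of the longest protein-coding transcript. Intervals are 95%. On the recovered reads edgeR 4.0.16 called 4880, 1529, 9940, 9455 and 7947 genes in the 5 comparisons in the order reported, and DESeq2 1.42.0 was also run. The comparisons share groups. The limma fit was tested only on data simulated for the 2 VAS groups, without a split group such as VAD WT. That test therefore does not cover the fit over 4 groups. The 9 genes and the lists were chosen with earlier results of these data known. Named genes are the 9 members, Stra6, the 3 closest genes to the 3 most abundant members, and the 2 highest genes of a muscle list. Xist, Ddx3y, Trpc4ap and the genes closest to Myh7b were named outside this rule, after their values or positions were seen. Same-numbered libraries were not paired by any label, and in 0 of 30 pairs did their deviations correlate above 0.1. The labels give no batch.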

Additional observations from a re-analysis of the deposited data

Results flagged for a closer look

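Single libraries (3) stood far from the rest of their group, among 35 groups of 5 member values examined, where chance alone flags about 1 in 20. Myh4 in VAS WT replicate 5 was 2393 normalized counts, with a gap to the next library of 0.787 of the group's range. Myh7 in VAD WT replicate 3 was 62.4, with a gap of 0.775. Myh13 in VAS Stra6-/- replicate 3 was 11.2, with a gap of 0.774.

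The difference between diets varied with the labelled genotype, by the interaction term, for Myh3 (-2.66 on the log2 scale) and for Myh7b (-2.71). Sex transcripts and tissue markers also differed between the groups, so their part cannot be told apart from that of genotype and diet. For Myh3 the log2 fold change of VAD against VAS libraries was -3.65 for those labelled Stra6-/- and -0.99 for those labelled WT. Stra6 itself matched the labelled genotype per count of RPE markers and not as a level. For Myh7b the log2 fold changes were -2.26 and 0.45, the second not called (adjusted p = 0.648, limma). Whether the Myh7b transcripts came from muscle was not tested.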

How the results depend on the processing

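The muscle covariate and the 2 subsets of VAD WT moved the most values. The subsets follow the split seen in VAD WT, so calls made with them rest on a spread without it. The share of all genes called under each alternative is not given here. A changed count therefore says little about these 9 genes in particular. In VAS Stra6-/- against VAS WT, 5 genes were called and 1 when a log2 fold change beyond 2 was also asked. In VAD WT against VAS WT, 3 were called, 1 with only those 2 groups fitted, 6 without VAD WT replicates 2 and 4, 5 without replicates 1, 3 and 5 (chosen after seeing the data), 5 with the muscle covariate and 0 beyond a log2 fold change of 2. Within Stra6-/-, the diet gave 4 calls, 8 with only the 2 groups and 8 without VAD WT replicates 1, 3 and 5. For the interaction 2 genes were called, 5 without VAD WT replicates 2 and 4, 5 without the other 3, and 4 with the muscle covariate. Leaving out 1 library at a time gave 5 to 5, 2 to 4, 6 to 6, 4 to 5 and 2 to 4 calls in the 5 comparisons, the interaction reaching 4 without VAD WT replicate 2 or 4. With the replicate number as a block the counts were 5, 3, 6, 4 and 2, no call count changed, and the numbers do not pair the samples: 2 of 20 libraries correlated best with their own number.

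With the mean of the muscle lists as a covariate, signs turned for Myh1 (-1.27), Myh2 (-0.39), Myh4 (-0.53) and Myh8 (-1.03) in VAS Stra6-/- against VAS WT, for Myh1 (0.94) and Myh2 (1.13) in VAD WT against VAS WT, for Myh2 in the libraries labelled VAD Stra6-/- against VAD WT (-0.032), and for Myh2 (1.49) and Myh4 (0.87) within Stra6-/-, where Myh1 was called at 2.51 (adjusted p = 5.32e-13, limma). That covariate spans 1.196 log2 units in VAD WT and at most 0.14 in another group, so its slope rests on the VAD WT split. Without VAD WT replicates 1, 3 and 5 the signs turned for Myh1 (1.13) and Myh2 (1.44) under the diet in WT and for Myh1 (-0.72) and Myh4 (-0.15) in the interaction, and without replicates 2 and 4 for Myh2 in the interaction (1.07). The cause was not tested. The covariate also ended the calls of Myh1 against VAD WT (adjusted p = 0.169, limma) and of Myh8 (adjusted p = 0.127) and Myh13 (adjusted p = 0.0765) within Stra6-/-, and Myh8 against VAD WT became called (-1.82, adjusted p = 0.0345). Myh3 kept its direction and its call at an adjusted p under 0.05 in every alternative run, the added fold limit aside. Few reads limit Myh6 and Myh13 (at most 15 in any library), Myh7b in the libraries labelled VAD Stra6-/- (2 to 28) and Myh8 in VAD WT replicates 1, 3 and 5 (3 to 8).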
